A study of Mus musculus with 8 samples.

Results

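The genes described here are 9 components and targets of the leukaemia inhibitory factor (LIF) pathway: the receptor chains Lifr and Il6st, the transcription factor Stat3, the feedback inhibitors Socs3 and Cish, and the target genes Pim1, Pim3, Bcl3 and Sbno2. The rule lists them by name and uses no measured value, although they were picked with earlier results of these data known. They are 9 of the 52636 gene identifiers counted. All 9 were among the 15517 genes that passed the filter on low counts.

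LIF is the cytokine that keeps mouse embryonic stem cells self-renewing in culture. It joins LIFR to gp130, the shared chain that Il6st encodes. The Janus kinases bound to these chains then phosphorylate STAT3, which enters the nucleus and switches on its targets. Among those targets are its own inhibitors, the SOCS proteins, and transcription factors of naive pluripotency, of which Klf4 is a well-known example.

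KLF4-KO cells were set against WT cells of E14, a mouse embryonic stem cell line from the blastocyst, using RNA-seq and RNA polymerase II HiChIP. HiChIP joins chromatin ends that lie near each other and pulls down fragments bound by a protein, and each joined fragment is counted as a paired-end tag (PET). RNA-seq comprised 2 KLF4-KO and 2 WT libraries, and HiChIP 1 pooled contact file per genotype, made from 2 samples each. In what follows KO means KLF4-KO.

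All samples, KO and WT, carry the same culture notes, which give a pair of media with 15% serum. The first held LIF at 10 ng/mL, the compound PD0325901 at 1 µM, which inhibits MEK, and CHIR99021 at 3 µM, which inhibits GSK3. The second had LIF at 1000 U/mL. The labels do not say which medium went with which library. LIF was thus supplied to both genotypes, and no LIF-free sample was analysed. Whether the KO libraries, which carry the letters B and F, came from 1 edited clone or from several is likewise not stated, so p-values measure the spread between these libraries only.

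Gene counts summed to between 8287497 and 8448519 in the KO libraries and between 9020599 and 9762190 in the WT libraries. Klf4 had 0 counts in both KO libraries, against 2882 and 2421 counts in the WT libraries. Log levels (in CPM, counts scaled to library size with TMM factors) correlated across genes at r = 0.97 between the KO libraries and 0.96 between the WT libraries, and at 0.88 to 0.92 between genotypes. The summed level of 7 stem cell markers was 6832 to 7559 CPM in KO and 6281 to 8241 CPM in WT. Summed over 7 fibroblast markers, 2 of which (Postn and Lum) had no count in any library, it was 10.5 to 12.2 CPM in KO and 6.16 to 6.31 CPM in WT. Most of this sum was Thy1, at 9.82 and 8.41 CPM in KO and 3.72 and 4.79 CPM in WT (edgeR FDR 0.13). Col1a1, Col1a2, Col3a1 and Dcn overlapped between the genotypes. Markers of primitive endoderm summed to 6.63 to 9.58 CPM in KO and 7.65 to 8.70 CPM in WT, those of trophoblast to 64.9 to 114.0 CPM in KO and 73.3 to 76.1 CPM in WT, and those of blood cells to 3.83 to 4.50 CPM in KO and 1.91 to 4.02 CPM in WT. Most of the trophoblast sum was Tfap2c, at 106.4 and 58.4 CPM in KO and 69.0 and 71.0 CPM in WT. Ptprc, the pan-leukocyte marker, had no count in any library. Of the single marker genes, Gata6 passed the test described next as higher in KO, at 2.99 and 2.84 CPM in KO and 0.425 and 0.326 CPM in WT. Hand1 did so at 2.40 and 1.42 CPM in KO and 0.213 and 0.218 CPM in WT. Gata4, another endoderm marker, had 2.04 and 0.474 CPM in KO and 3.93 and 5.22 CPM in WT and did not pass (edgeR FDR 0.13). The part of these marker genes in the results was not tested.

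Of the 9 genes, 1 rose (Pim3) and 1 fell (Bcl3) in KO cells at a false discovery rate (FDR) threshold of 0.05, and 7 did not pass it. The test was edgeR's quasi-likelihood test with Benjamini-Hochberg adjustment over all 15517 genes. Over all genes tested, 8.30% passed in either direction, 2.96% as higher and 5.34% as lower in KO. Both calls lay just under the threshold and were lost under several alternatives, which are given with each gene. The alternative with no filter on low counts called only 2 genes in all and did not call Klf4 (edgeR FDR 0.073). A call lost there thus says little about a single gene. The median log2 fold change of the 9 genes was 0.19, against -0.0015 over all genes tested. The KO and WT libraries did not overlap in 5 of the 9, with 4 higher and 1 lower in KO. The same held for 53.5% of all genes tested, so this count is near the background.

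**Figure D1:**
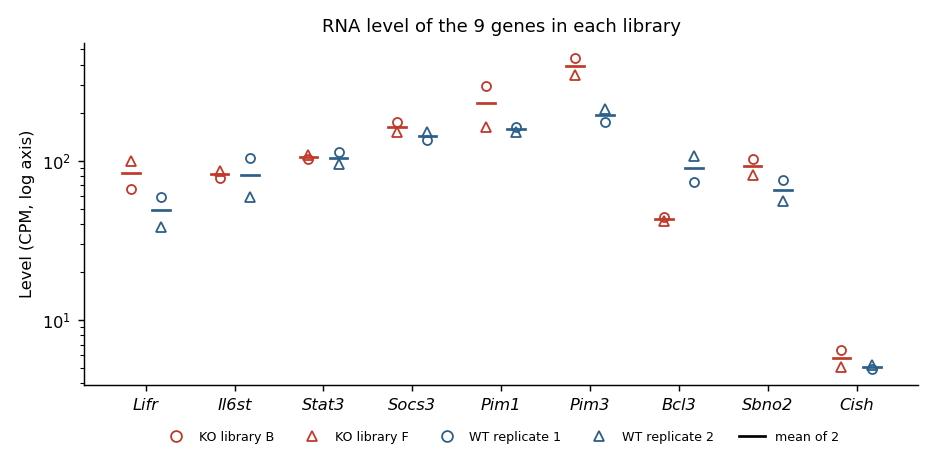
RNA level (CPM, log axis) of the 9 genes in each KO library (red, left) and each WT library (blue, right), with a bar at the mean of each genotype. Pim3 sits at 344.4 to 439.3 CPM in KO and 176.0 to 211.7 CPM in WT, and Bcl3 at 41.6 to 44.3 CPM in KO and 73.9 to 106.3 CPM in WT. Levels of different genes are not scaled by length and are not comparable with each other.

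The receptor chains and STAT3 did not pass the test. Lifr, the LIF-specific chain, had 66.4 and 100.0 CPM in the KO libraries, against 59.0 and 38.5 CPM in the WT libraries. Both KO libraries were above both WT libraries, but each genotype's own libraries differed widely. The log2 fold change was 0.77 (95% interval 0.05 to 1.49, edgeR FDR 0.18). It was 1.10 and passed when WT replicate 1 was left out (FDR 0.019). In bulk libraries, fewer cells that express a gene and less RNA per cell cannot be told apart.

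Il6st, which encodes gp130, had 78.1 and 86.2 CPM in KO and 103.3 and 59.4 CPM in WT. Both KO values lay between the WT values. The log2 fold change was 0.01 (-0.68 to 0.71), with an edgeR FDR of 0.98. Stat3, the transcription factor on which the pathway converges, had 102.8 and 109.0 CPM in KO and 113.0 and 95.7 CPM in WT. Here too the KO values fell within the WT range, and the log2 fold change of 0.02 (-0.51 to 0.55, FDR 0.97) allows differences of either sign. These are RNA levels, and phosphorylated STAT3 was not measured.

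The inhibitors Socs3 and Cish did not pass either. Socs3, whose protein binds gp130 and the Janus kinases and blocks further signalling, had 173.6 and 152.0 CPM in KO, against 133.8 and 152.1 CPM in WT. KO library F and WT replicate 2 were almost level. The log2 fold change was 0.19 (-0.35 to 0.72), with an edgeR FDR of 0.67. Cish, a SOCS family member best known as a target of STAT5, was counted at only 54 and 43 reads in KO and 46 and 48 reads in WT, or 6.47 and 5.09 CPM in KO and 4.89 and 5.22 CPM in WT. Its log2 fold change of 0.19 has a 95% interval from -0.74 to 1.12 (FDR 0.81), the widest of the 9.

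STAT dimers bind an inverted repeat spelled TTCNNNGAA, which is its own reverse complement. RefSeq promoters (GRCm38.p6, 250 bases before and 50 after each annotated start, 13 for the 9 genes) were searched for it. It occurred in 4 promoters of 3 genes, Socs3, Cish and Sbno2, and in 8.30% of all 32851 RefSeq promoters of this length. These 4 are printed because they are the ones that hold the letters. They run 5′ to 3′ on the gene's strand, with matches to TTCNNNGAA in capitals.
Socs3, chr11:117969317-117969616, minus strand: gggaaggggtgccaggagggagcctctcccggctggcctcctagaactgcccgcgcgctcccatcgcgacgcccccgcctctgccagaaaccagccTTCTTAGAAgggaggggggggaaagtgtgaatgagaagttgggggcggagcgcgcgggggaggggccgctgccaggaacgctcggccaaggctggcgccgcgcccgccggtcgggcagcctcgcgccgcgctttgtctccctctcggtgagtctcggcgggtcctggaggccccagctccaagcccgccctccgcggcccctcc
Cish, chr9:107296409-107296708, plus strand: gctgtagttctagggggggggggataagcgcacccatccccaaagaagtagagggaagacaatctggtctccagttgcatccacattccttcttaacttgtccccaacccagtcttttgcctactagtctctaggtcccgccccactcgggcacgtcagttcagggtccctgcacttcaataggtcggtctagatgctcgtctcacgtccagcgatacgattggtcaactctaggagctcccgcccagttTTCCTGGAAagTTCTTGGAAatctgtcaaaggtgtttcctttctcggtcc
Sbno2 first start, chr10:80102653-80102952, minus strand: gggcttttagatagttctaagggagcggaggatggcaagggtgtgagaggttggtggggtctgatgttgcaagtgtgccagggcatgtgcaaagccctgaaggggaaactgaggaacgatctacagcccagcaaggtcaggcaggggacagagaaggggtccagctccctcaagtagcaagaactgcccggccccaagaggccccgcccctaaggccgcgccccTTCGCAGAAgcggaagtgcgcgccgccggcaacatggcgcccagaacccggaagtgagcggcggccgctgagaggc
Sbno2 second start, chr10:80101138-80101437, minus strand: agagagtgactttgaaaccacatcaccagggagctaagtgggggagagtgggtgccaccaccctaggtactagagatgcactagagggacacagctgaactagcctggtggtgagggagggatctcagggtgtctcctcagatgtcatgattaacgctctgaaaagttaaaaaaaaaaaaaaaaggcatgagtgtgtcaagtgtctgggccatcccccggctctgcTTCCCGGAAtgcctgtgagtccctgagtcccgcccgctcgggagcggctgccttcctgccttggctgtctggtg

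Cish held 2 matches, TTCCTGGAA beginning at the annotated start (position 0) and TTCTTGGAA beginning at position 11, with 2 bases between them. At least 2 matches occurred in 0.457% of all promoters. In Socs3 the match was TTCTTAGAA at position -154. Sbno2 had TTCGCAGAA at position -26 of its first start and TTCCCGGAA at position -24 of its second start. The stricter form TTCCNGGAA, present in 1.15% of promoters, occurred in Cish and in the second Sbno2 promoter. The other 9 promoters, of Lifr, Il6st, Stat3, Pim1, Pim3, Bcl3 and the third Sbno2 start, did not hold TTCNNNGAA in this window.

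The same windows were searched for a GC-rich element of the kind that KLF proteins bind, CCNCNCCC or its reverse complement GGGNGNGG. It was found in at least 1 promoter of each of the 9 genes and in 12 of their 13 promoters, and in 49.5% of all promoters. Placements that overlapped each other were counted as separate matches, so a run of G or C can hold several. The promoters of the called genes Pim3 and Bcl3 held 3 matches each, as did those of Il6st, Stat3 and the first Sbno2 start. Cish held 4, all of them overlapping placements in a single run of G. Socs3 held 7 and the first Pim1 promoter held 9. At least 2 matches, counted in the same way, occurred in 30.6% of all promoters. G and C made up 69.0% of the Pim3 and Bcl3 promoters, against 81.3% in the first Pim1 promoter and 53.3% in Cish. A match describes letters only.

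Among the targets, Pim1 and Pim3 encode serine/threonine kinases that promote survival and growth, and Pim3 passed the test. Pim3 had 439.3 and 344.4 CPM in KO, against 176.0 and 211.7 CPM in WT. The lower KO library was well above the higher WT library. The means were 391.9 ± 67.1 CPM in KO and 193.8 ± 25.2 CPM in WT (SD, n = 2 each), a ratio of 2.02 and a log2 fold change of 1.02 (0.43 to 1.60), with an edgeR FDR of 0.047. The difference lost its call without KO library B (0.83, FDR 0.36), without KO library F (1.19, FDR 0.14), without WT replicate 1 (0.88, FDR 0.056) and with no filter on low counts (FDR 0.15), and stayed positive in all 10 alternatives.

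Pim1 had 294.6 and 163.6 CPM in KO, against 162.6 and 151.1 CPM in WT. KO library B was far above the rest, while KO library F was close to WT replicate 1. The log2 fold change was 0.55 (-0.16 to 1.25, edgeR FDR 0.32). It ranged from 0.06 to 0.92 over 10 alternatives. The 5′ end of Pim1 (chr17:29490785-29496111, mm10) overlaps a long non-coding RNA on the other strand, Gm26885 (chr17:29446838-29491544). Gm26885 had 96.3 and 64.0 CPM in KO and 53.7 and 41.8 CPM in WT (log2 fold change 0.75, edgeR FDR 0.16). The strand setting of the counting is not stated, so reads from the shared stretch cannot be told apart. Genes absent from the count table also overlap Stat3 (Gm46295) and Pim3 (Gm33049).

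Bcl3, an atypical IκB protein that works with the p50 and p52 subunits of NF-κB, was the member that fell. It had 44.3 and 41.6 CPM in KO, against 73.9 and 106.3 CPM in WT. The KO libraries were close together and both below the WT libraries. Means were 42.9 ± 1.94 CPM in KO and 90.1 ± 22.9 CPM in WT (SD, n = 2 each), with a log2 fold change of -1.07 (-1.69 to -0.45) and an edgeR FDR of 0.049. The call was lost in 8 of 10 alternatives, at an FDR of 0.0513 with RLE factors, 0.0511 with library totals, 0.0505 with a filter of 1 CPM, 0.058 with limma voom, 0.17 with no filter, 0.21 without KO library B, 0.29 without KO library F and 0.0999 without WT replicate 2. The direction was the same in all 10. Bcl3 spans Gm16174, a non-coding gene with 12 and 3 counts in KO and 6 and 3 in WT, beside 370 and 351 counts of Bcl3 in KO and 695 and 977 in WT.

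Sbno2, a helicase-family protein described as an effector of interleukin-10 and STAT3 signalling in macrophages, had 102.5 and 81.5 CPM in KO, against 75.9 and 55.6 CPM in WT. The KO libraries lay above the WT libraries with a narrow gap. The log2 fold change was 0.49 (-0.13 to 1.10), with an edgeR FDR of 0.31.

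**Figure D2:**
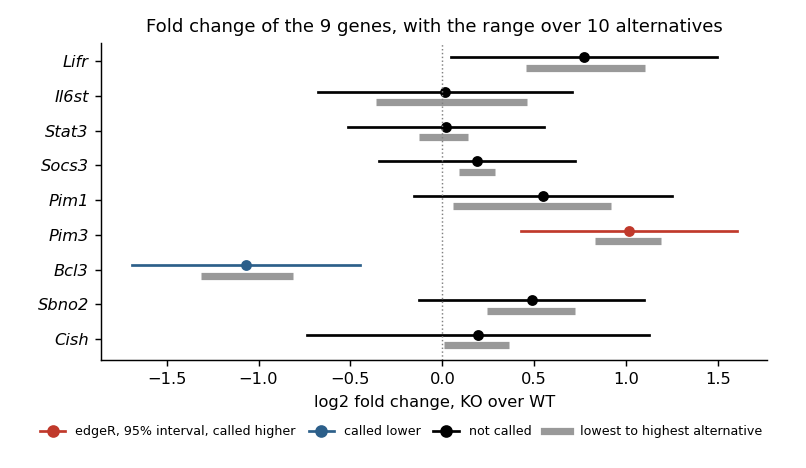
Log2 fold change, KO over WT, of each gene with its 95% interval from edgeR (points and lines) and, under it, the lowest to highest value over 10 alternatives (grey bars). Pim3 (1.02) and Bcl3 (-1.07) are the 2 called genes, and the grey bars of Il6st and Stat3 cross 0.

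Leaving out predicted genes, those whose 4-library pattern was closest to that of Pim3, by Euclidean distance of centred log2 CPM over the 4 libraries, were Slc9a5 (0.033), Pla2g6 (0.055) and Pea15a (0.084). For Bcl3 they were Nufip1 (0.065), Ldhd (0.083) and Coq3 (0.086). Likeness over 4 libraries of 2 genotypes is a description only.

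The rest of the pathway was read from 4 lists with 52 genes, of which 47 passed the filter. In all, 3 rose and 7 fell in KO, with Klf4, the deleted gene, among the 7, beside 2.96% higher and 5.34% lower over all genes tested. The lists and their medians were chosen with earlier results of these data known.

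Ligands and receptor chains other than the 9 genes gave 3 lower and 0 higher calls among 6 tested of 11 listed (5.34% lower and 2.96% higher over all genes tested), with a median log2 fold change of -1.04. Lif itself, read here as RNA with no protein measured, was counted at 2.28 and 3.08 CPM in KO, against 15.0 and 11.2 CPM in WT. Both KO libraries were far below WT, and the log2 fold change was -2.28 (edgeR FDR 0.016). Osm, the gene of the related cytokine oncostatin M, had 7 and 1 counts in KO, against 103 and 120 counts in WT (log2 fold change -4.61, FDR 0.0076), and the value was -6.50 without KO library B and -3.81 without KO library F. Il6ra, the ligand-binding chain for interleukin-6, had 6 and 36 counts in KO and 222 and 164 counts in WT, a log2 fold change of -3.05 (FDR 0.027). Its KO libraries differed from each other, yet both were far below WT, and the value was -2.28 without KO library B and -4.81 without KO library F.

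The other tested genes of this list did not pass. The log2 fold change was 1.56 for Cntfr (FDR 0.068), 1.14 for Il11ra1 (FDR 0.12) and 0.21 for Ctf1 (FDR 0.82). Il6, Cntf, Clcf1, Il11 and Osmr did not reach the filter. Osmr, the chain that pairs with gp130 for oncostatin M in mouse, had 1 and 2 counts in KO and 3 and 1 in WT.

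None of 10 kinases and STATs passed with DESeq2, limma voom or edgeR, whose unadjusted p was under 0.05 for 3 of them. The median log2 fold change was -0.22. Jak3 averaged 30.7 ± 0.92 CPM in KO and 50.6 ± 2.28 CPM in WT (SD, n = 2 each), a log2 fold change of -0.72 (FDR 0.12). Jak1, the kinase most used by gp130, was at -0.03 (FDR 0.96), Stat4 at 1.28 (FDR 0.13) and Stat2 at 0.61 (FDR 0.17). Nor did any of 14 other inhibitors pass with these 3 tools, and 1 had an unadjusted edgeR p under 0.05. Their median was 0.12. Pias1, which encodes a SUMO ligase, had a log2 fold change of 0.82 (FDR 0.14) and passed without WT replicate 1 (FDR 0.028). Socs5 was at -0.78 (FDR 0.22) and Socs6 at 0.42 (FDR 0.42).

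Other STAT3 targets moved in both directions, 3 higher and 4 lower among 17, all tested (2.96% higher and 5.34% lower over all genes tested). Klf4, the deleted gene, was among the 4 lower. The median was 0.20. It was the same with Klf4 set at a bound of 3 counts over the KO libraries, where Klf4 stays the lowest value and so cannot move it. Tfcp2l1, a naive pluripotency factor and major effector of LIF in these cells, had 203 and 274 CPM in KO, against 1061 and 721 CPM in WT (log2 fold change -1.90, edgeR FDR 0.011). Pramel7, a PRAME family gene tied to naive pluripotency, had 0 and 5 counts in KO, against 56 and 65 counts in WT (-4.39, FDR 0.019). Its value was -3.43 without KO library B and -8.87 without KO library F, which leaves a KO library with 0 counts, so that the size of the second value is set by the fit. Cebpb, a bZIP transcription factor, had 8.98 and 7.46 CPM in KO and 20.5 and 38.0 CPM in WT (-1.83, FDR 0.026). In each of these the KO libraries were below the WT libraries without overlap.

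Higher in KO was Myc, the growth-promoting transcription factor, at 15.1 and 35.1 CPM, against 1.49 and 2.61 CPM in WT (log2 fold change 3.61, edgeR FDR 0.0082; 2.88 without KO library F). Mcl1, an anti-apoptotic BCL2 family member, had 934 and 632 CPM in KO and 353 and 329 CPM in WT (1.20, FDR 0.038). That call was lost without KO library B (FDR 0.34) and without KO library F (FDR 0.059). Ier3, an immediate early gene, had 18.3 and 10.8 CPM in KO, against 3.29 and 4.24 CPM in WT (1.95, FDR 0.029), and lost its call without KO library B (FDR 0.098).

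Of the genes that did not pass, the third PIM kinase gene, Pim2, had 46.2 and 24.6 CPM in KO and 11.2 and 14.9 CPM in WT (1.44, edgeR FDR 0.053). Gbx2, a homeobox factor, had 25.3 and 63.4 CPM in KO and 13.2 and 16.1 CPM in WT (1.60, FDR 0.060). DESeq2 called both genes, and each also passed in 3 of the 4 edgeR fits that left out 1 library. Bcl2l1, another anti-apoptotic gene, was at -0.61 (FDR 0.20).

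**Figure D3:**
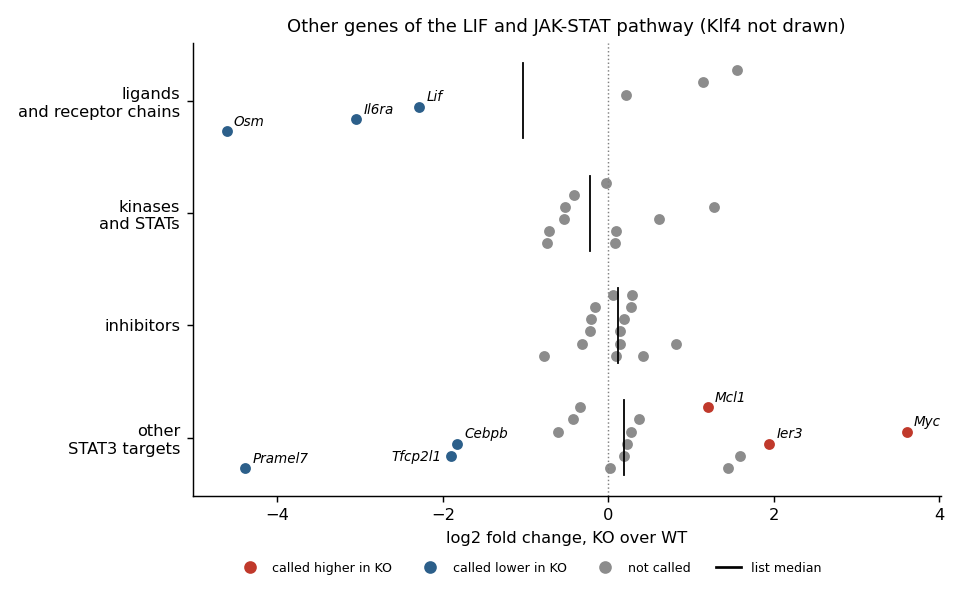
Log2 fold change, KO over WT, of the tested genes of 4 pathway lists (points) except Klf4, which is not drawn, with the list median (Klf4 included) as a vertical line and the other 9 called genes named. Osm, Il6ra and Lif lie between -4.61 and -2.28, kinases, STATs and inhibitors hold no called gene, and the drawn STAT3 targets spread from -4.39 to 3.61.

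Contacts of RNA polymerase II were read from 401726 PETs in the KO pool and 35189 PETs in the WT pool, an 11.4-fold difference in depth. Median anchor length was 2932 bases in KO and 1999 bases in WT. Anchors were listed separately in each pool, so shares per 10000 PETs move with how much was listed. With 1 pool per genotype no test between genotypes was made, and intervals (95%) cover counting error only. They are exact Poisson for a single gene over its span and for single pairs, and exact binomial for other sums. For a count of 0 the limit given is that of 3 PETs. A PET was assigned to a gene where an anchor overlapped its span by at least 1 base.

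Anchors lay on 8 of the 9 genes in KO and on 7 of 9 in WT. Among tested protein-coding genes the shares were 77.6% in KO and 54.4% in WT. The 9 genes together held 866 PETs in KO, in 274 pairs over 63198 anchor bases, a mean of 3.16 PETs per pair. In WT they held 131 PETs in 81 pairs over 24994 anchor bases, a mean of 1.62. These were 21.6 per 10000 in KO (20.1 to 23.0) and 37.2 per 10000 in WT (31.1 to 44.2). The median gene of the 9 had 1.82 per 10000 in KO and 1.99 in WT, against 0.348 in KO and 0.284 in WT over tested protein-coding genes.

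The receptor genes had the fewest PETs in KO of the 8 genes with an anchor there. Their KO shares lay near the median of tested protein-coding genes, 0.348 per 10000 in KO (0.284 in WT). Lifr had 12 PETs in KO (0.299 per 10000, 0.154 to 0.522) and 0 in WT, which allows up to 0.853 per 10000 (3 PETs). Of the KO PETs, 4 joined the anchor at its first listed promoter with one 13.4 kb away. Both of these anchors lay inside the annotated span of the gene. Il6st had 10 PETs in KO (0.249 per 10000, 0.119 to 0.458) and 3 in WT (0.853, 0.176 to 2.49). Both pools listed the same start anchor, chr13:112462885-112465174. It was joined to a site near 23.7 kb upstream by 3 PETs in KO and 2 in WT, and in KO also to a site 49.8 kb upstream by 4 PETs.

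At Stat3 there were 73 PETs in KO (1.82 per 10000, 1.42 to 2.28) and 7 in WT (1.99, 0.80 to 4.10). In KO, 9 PETs joined an intragenic anchor to the start anchor. The neighbouring STAT gene Stat5b was joined to that intragenic anchor by 3 PETs in KO, and to the start anchor by 1 PET in KO and 1 in WT. Stat5b is named after its values were seen. Socs3 had 27 PETs in KO (0.672 per 10000, 0.443 to 0.978) and 12 in WT (3.41, 1.76 to 5.96). Its start anchor, chr11:117968250-117970858, was the same in both pools. WT had a further anchor on the gene's 3′ part, joined to the start anchor by 4 PETs, while the nearest KO anchor on that side, chr11:117962159-117964470, ended outside the gene. With the span extended by 5000 bases on both sides, Socs3 had 70 PETs in KO (1.74 per 10000, 1.36 to 2.20) and 12 in WT as before. Cish had no anchor in either pool, which allows up to 0.0747 per 10000 in KO and 0.853 in WT (3 PETs in each pool).

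The target genes carried most of the contacts. Pim1 had 150 PETs in KO (3.73 per 10000, 3.16 to 4.38; 8860 anchor bases) and 26 in WT (7.39, 4.83 to 10.8; 5110 anchor bases). In KO, 75 of the 129 PETs that left its anchor went to 5 sites within 100 kb upstream. They included 24 PETs at chr17:29456274-29471403, 18 at chr17:29444876-29455760, 17 at chr17:29484137-29486553 and 12 at chr17:29472280-29478569. The annotated span of Gm26885 covers or overlaps all 4 of these sites. In WT, 5 of 17 such PETs went upstream within 100 kb, and 3 WT pairs with 4 PETs overlapped the pair with 24 PETs in KO, or 0.597 per 10000 in KO (0.383 to 0.889) and 1.14 per 10000 in WT (0.310 to 2.91).

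Pim3 had 104 PETs in KO (2.59 per 10000, 2.12 to 3.14; 9409 anchor bases) and 35 in WT (9.95, 6.93 to 13.8; 5901 anchor bases). In KO, 65 of the 104 had both ends in the single anchor over the gene. In WT the gene carried 2 anchors, with 8 PETs between them, and both lay inside the KO anchor. Among contacts with other genes, the strongest in KO was with an anchor within Brd1, at 5 PETs, and it had 2 PETs in WT.

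Bcl3, lower in KO by RNA, had 152 PETs in KO (3.78 per 10000, 3.21 to 4.44; 14452 anchor bases) and 3 in WT (0.853, 0.176 to 2.49; 1358 anchor bases). PETs of the anchor holding its start, chr7:19821481-19831794, numbered 112 in KO (2.79 per 10000, 2.30 to 3.35). No WT anchor held the start, but chr7:19823709-19825652, 954 bases upstream of it, outside the gene span and inside the KO start anchor, had 3 PETs in WT (0.853 per 10000). With the span extended by 5000 bases, Bcl3 had 152 PETs in KO and 6 in WT (1.71 per 10000, 0.626 to 3.71). Of the KO PETs, 39 lay within the KO start anchor, 24 joined it to an intragenic anchor and 10 to an anchor holding the start of Nectin2, 80.7 kb away. The WT anchor on the gene, chr7:19816035-19817392, lay inside the KO intragenic anchor and had 3 pairs of 1 PET.

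Sbno2 had the most PETs of the 9, 338 in KO (8.41 per 10000, 7.54 to 9.36; 14623 anchor bases) and 45 in WT (12.8, 9.33 to 17.1; 3311 anchor bases). Most belonged to its 3′ end, where the KO anchor chr10:80046555-80059137 also holds the start of Gpx4, a lipid peroxidase gene. That anchor had 95 PETs within itself, 85 to the start of Polr2e and 15 to the start of Ptbp1 in KO. In WT, 16 PETs joined the 3′ anchor to a separate anchor at Gpx4. PETs of anchors holding an Sbno2 start numbered 45 in KO, and no WT anchor held one. The 3′ anchors overlapped both genes in both pools, so their PETs cannot be assigned to Sbno2 or Gpx4 alone. With the span extended by 5000 bases, which takes in the WT anchor at Gpx4, Sbno2 had 338 PETs in KO and 72 in WT (20.5 per 10000, 16.0 to 25.8).

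Over the 9 genes, 23 of the 73 WT pairs between different anchors overlapped a KO pair at both ends, or 31.5%. Seen from KO, 20 of 263 pairs overlapped a WT pair, or 7.60%. A further 3 WT pairs, with 29 PETs, overlapped 1 and the same KO anchor at both ends. At Pim1, a WT anchor of such a pair ran past the end of the KO anchor.

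**Figure D4:**
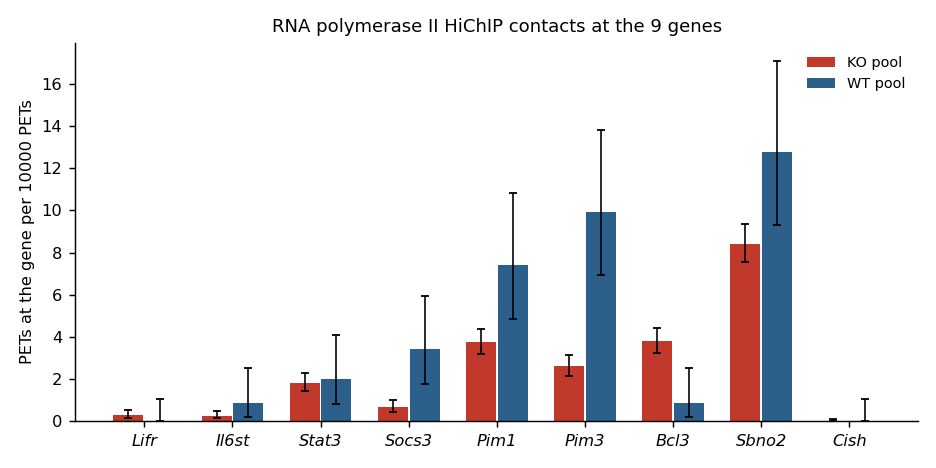
PETs at each gene per 10000 PETs of the pool in KO (red, left) and WT (blue, right), with exact 95% Poisson intervals for counting error. Bcl3 stands at 3.78 in KO and 0.853 in WT and Pim3 at 2.59 in KO and 9.95 in WT, and Cish has no PET in either pool.

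**Figure D5:**
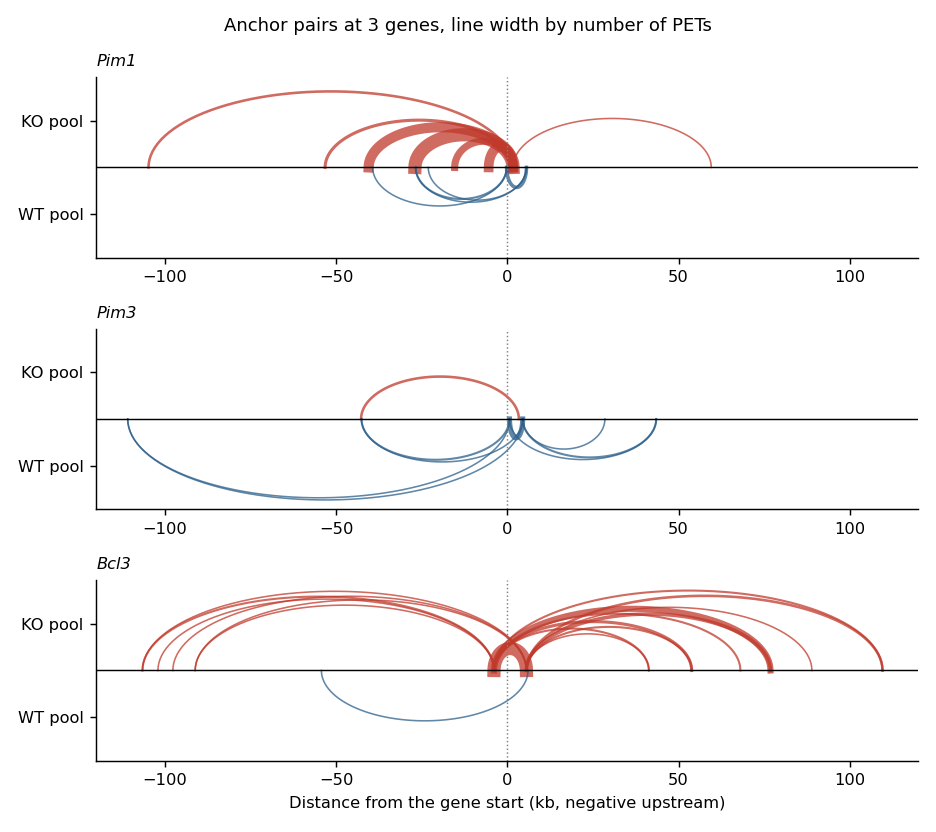
Anchor pairs with at least 1 anchor on Pim1, Pim3 or Bcl3 within 120 kb of the gene start (x axis, kb), KO above and WT below the line, with wider arcs for more PETs and pairs within 1 anchor left out. The 4 wide upstream arcs of Pim1 in KO carry 12 to 24 PETs, and the anchor at the start of Bcl3 has arcs in KO. A WT anchor with 3 PETs lies 954 bases upstream of that start, outside the gene span, and is not drawn.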

How the data were processed

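RNA-seq counts and HiChIP contact counts of KLF4-KO and WT E14 cells were used. The tools named, per the submitters' processing notes, are HiC-Pro 2.11.4, DESeq2 1.18.1, HTSeq 0.9.1 and HISAT2 2.1.0, with the build mm10. The deposited gene counts are whole reads per Ensembl gene, and the deposited contact counts are PETs per anchor pair, pooled over replicates. The sources used here name no annotation release, strand setting or loop caller. Records in no single gene were left out, and gene counts made up 34.5% to 36.0% of each file.

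Expression was compared using edgeR 4.0.16 and R 4.3.3 (filterByExpr, TMM, quasi-likelihood, genotype only; 2 residual and 6.29 prior degrees of freedom, common biological coefficient of variation 0.256), with limma 3.58.1 (voom) and DESeq2 1.42.0 as alternatives. The edgeR step was tested on simulated data. Symbols matched 52403 identifiers. Positions and promoters came from RefSeq on GRCm38.p6, the patched mm10 build. The members and lists were chosen with earlier results of these data known. All 9 genes were named. From each list, every gene past the FDR threshold was named, and otherwise up to 3 with the smallest p. Osmr, Jak1, Stat5b, Brd1 and the single marker genes of other cell types were named outside that rule, after their values were seen. Neighbouring genes were named where their span overlapped 1 of the 9 genes or where a pair had at least 10 PETs.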

Additional observations from a re-analysis of the deposited data

How the results depend on the processing

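With 2 libraries per genotype and a common coefficient of variation of 0.256, small differences were not detectable. The count of genes called was 1288, 2 with no filter on low counts and 1013 to 2517 over fits that each left out 1 library, the highest without WT replicate 1. Of the 9 genes 2 were called. The count was 1 with RLE factors, library totals, limma voom or a filter of 1 CPM in 2 libraries, and 0 with no filter. It ranged from 0 to 2 on leaving out 1 library, with 0 without KO library B or F and 1 without WT replicate 2. A lone library is assumed to vary like the other genotype. The 10 pathway list calls became 0 with no filter and 9 to 14 on leaving out 1 library. Leaving out 1 library turned the log2 fold change of Il6st (range -0.36 to 0.46; -0.05 without KO library F, -0.36 without WT replicate 2), Stat3 (range -0.13 to 0.14; -0.01 and -0.13 in the same fits) and Ctf1 (range -0.059 to 0.45, lowest without KO library F). The cause was not tested. Alternatives for single list genes were chosen after seeing the data.

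The share of PETs at the 9 genes was 21.6 per 10000 in KO and 37.2 in WT. With spans extended by 5000 bases it was 24.2 in KO and 45.8 in WT. Within 2500 bases of the start it was 12.3 in KO and 19.9 in WT. For anchors at least 20000 bases apart it was 26.1 in KO and 43.2 in WT. With pairs of at least 2 PETs it was 20.9 in KO and 33.0 in WT. Of the shares of single genes under these 4 settings, 11 of 36 moved in KO and 5 of 36 in WT. No paired analysis was possible because the KO columns carry letters and no replicate numbers.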
